A study of Mus musculus with 16 samples.

Results

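The liver makes most of the proteases, cofactors and inhibitors that circulate in plasma for blood clotting and for the first steps of complement. Here 34 mouse genes for such proteins were examined in male and female livers. The mice were WT or carried a hepatocyte-specific deletion in RXRα. The genes were taken from a list of coagulation, fibrinolysis and early complement genes. Of the 34, 32 had a probe that the array annotation assigns to the gene, while C3 and Cpb2 had none in that annotation and were not analysed here. C1ra had 2 probes, neither of which was detected on any array, so 31 genes were tested among 9906 tested of 19057 genes with a probe.

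Liver RNA came from 16 mice aged 2 months, 1 Illumina mouse Ref-6 v2 array each. The groups were 3 male WT, 5 female WT, 3 male hs-KO and 5 female hs-KO mice. The hs-KO mice carry the genotype labelled hs-RXRa-Dex4-/-, a hepatocyte-specific deletion in the retinoid X receptor RXRα that does not target the other cells of the liver. The promoter that drives the deletion, the strain and the litters are not given in the sources used here. Each p-value sets a difference between group means against the spread between mice within groups, pooled over the 4 groups. Each value is a background-subtracted, quantile normalised probe intensity on a linear scale, and differences are log2 differences after addition of 16, tested in limma with Benjamini-Hochberg adjustment over all 9906 genes at a threshold of 0.05.

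In coagulation, the contact and tissue factor pathways both activate factor X, which converts prothrombin to thrombin, and thrombin turns fibrinogen into fibrin. Antithrombin, protein C with its cofactor protein S, and heparin cofactor II restrain this cascade, and plasmin dissolves the clot. In complement, mannose-binding lectins with their MASP proteases, or C1, cleave C4 and C2, factor B forms the alternative pathway convertase, and C4b-binding protein, factor I and C1 inhibitor limit these steps. RXRα is the shared partner of many nuclear receptors in hepatocytes.

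The 4 genes that passed the threshold in at least 1 comparison were Mbl2, Serpinc1, C4bp and Pros1, and their promoter windows are shown so that the sequence at the start of each can be read beside its levels. Each window runs from 250 bases before to 50 bases after a RefSeq transcription start in GRCm38.p6, 5′ to 3′ on the strand of the gene. Capitals mark AGGTCA, the half-site of nuclear receptors such as RXRα, and TTCNNNGAA, the palindrome of STAT5, the growth hormone-activated factor, on either strand. The windows lie at chr19:30232678-30232977 on the plus strand for Mbl2, chr1:160978333-160978632 on the plus strand for Serpinc1, chr1:130661569-130661868 on the minus strand for C4bp and chr16:62854057-62854356 on the plus strand for Pros1.
Mbl2: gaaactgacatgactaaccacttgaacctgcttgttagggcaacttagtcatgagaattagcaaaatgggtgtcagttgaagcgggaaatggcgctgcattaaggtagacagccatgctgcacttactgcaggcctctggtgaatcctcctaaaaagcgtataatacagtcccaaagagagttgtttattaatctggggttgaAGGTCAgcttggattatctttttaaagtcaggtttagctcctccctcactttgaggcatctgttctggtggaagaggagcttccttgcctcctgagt
Serpinc1: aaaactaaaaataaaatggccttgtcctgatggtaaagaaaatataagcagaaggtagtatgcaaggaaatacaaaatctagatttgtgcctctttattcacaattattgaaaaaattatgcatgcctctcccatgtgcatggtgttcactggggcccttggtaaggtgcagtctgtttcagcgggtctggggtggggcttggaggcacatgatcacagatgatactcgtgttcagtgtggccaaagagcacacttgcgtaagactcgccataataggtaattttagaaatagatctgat
C4bp: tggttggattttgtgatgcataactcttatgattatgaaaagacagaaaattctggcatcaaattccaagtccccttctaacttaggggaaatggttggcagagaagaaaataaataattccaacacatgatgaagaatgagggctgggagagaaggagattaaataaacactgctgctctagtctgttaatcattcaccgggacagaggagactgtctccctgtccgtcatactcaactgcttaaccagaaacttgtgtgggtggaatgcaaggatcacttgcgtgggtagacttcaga
Pros1: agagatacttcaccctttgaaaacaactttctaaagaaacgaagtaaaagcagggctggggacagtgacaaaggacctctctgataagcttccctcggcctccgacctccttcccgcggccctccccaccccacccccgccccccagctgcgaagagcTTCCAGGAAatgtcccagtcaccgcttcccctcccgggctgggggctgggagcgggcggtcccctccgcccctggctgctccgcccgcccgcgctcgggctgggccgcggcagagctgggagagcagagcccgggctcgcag
The Mbl2 window held 1 AGGTCA at positions -47 to -42, and the Pros1 window held 1 TTCNNNGAA at -92 to -84, a pattern with free middle bases that matches on both strands. The Serpinc1 and C4bp windows held no match to either. Windows were found for 25 of the 34 genes, and 6 motifs were searched on both strands. AGGTCA occurred in 10 of the 25 (40%), namely F5, F2, Fgg, F7, F10, Serpinf2, Serpind1, C3, Mbl2 and F9, and in 16.3% of all 32851 windows of the same length. TTCNNNGAA occurred in 6 of the 25 (24%), namely Fga, Fgb, Masp2, C1ra, Pros1 and F9, and in 8.3% of all windows. The other 4 had no match in the 25 windows, namely AGGTCA repeated in the same direction with 1 base between, found in 0.0396% of all windows, the HNF1 palindrome (GTTAAT, any 1 base, ATTAAC) in 0.00913%, the HNF4 core CAAAGTCCA in 0.475% and the C/EBP palindrome TTGCGCAA in 0.183%. A match or its absence describes only the letters in these windows.

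Several of the genes are neighbours in GRCm38.p6. The 3 fibrinogen chain genes lie together on chromosome 3, with Fgg at 83007724 to 83015056, Fga at 83026153 to 83033627 and Fgb at 83042246 to 83049863. F7, F10 and Proz follow each other on chromosome 8 from 13025506 to 13076026, and F11 and Klkb1 lie next to each other on the same chromosome from 45240659 to 45294835. Cfb and C2 adjoin on chromosome 17 from 34856374 to 34882100, and C4b starts at 34728139. F9, the gene of coagulation factor IX, is the only one of the 34 on the X chromosome.

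All 31 tested genes were detected on all 16 arrays. Levels were reproducible within groups, with a median coefficient of variation over the 31 genes of 10.5% in male WT, 12.2% in female WT, 8.27% in male hs-KO and 12.8% in female hs-KO. The widest spread within a group was that of C4b in female WT, with 47.4%. Intensities of different probes are not compared, since probes differ in response and quantile normalised values saturate at 43731, which Kng1 reached on 3 arrays and Fga on 1. Xist, the RNA of the inactive X chromosome, matched the sex label on every array (767 to 2787 in females and below 0 in males), whereas the Rxra probe lay between 47.7 and 109 on the 16 arrays with no lower level in hs-KO, and where it lies relative to the deleted part is not known here. The 3 arrays with the lowest mean correlation with their own group were female WT 4, female WT 2 and female hs-KO 9. The summed intensity of the 9 tested of 12 Kupffer cell and macrophage markers was 4994 to 6206 in male WT, 5260.02 to 8572 in male hs-KO, 4598 to 16408 in female WT and 5476 to 7386 in female hs-KO. Female WT 2 had the highest sum of these markers (16408) and of 3 neutrophil markers (1511, against 109 to 772). Without that array the Mbl2 and Serpinc1 calls in WT stood. The median WT sex difference of the 31 genes was then -0.20, against -0.03 over all genes. Of the 9 macrophage markers 0 passed in any comparison. At an unadjusted p under 0.05 in limma 3 stood in the WT sex comparison (17.4% of all genes) and 0 in each of the others. All 9 lay below 0 in the WT sex comparison (median -0.50) and in the female genotype comparison (median -0.26), and all 9 lay above 0 in the male genotype comparison (median 0.23). Of 9 sinusoidal endothelium markers all lay below 0 in the WT sex comparison (median -0.30), and Pecam1 passed there (-0.73, adjusted p = 0.0396 from limma) and in hs-KO (-0.79, adjusted p = 0.0331). Of 9 stellate cell markers 7 lay below 0 in WT (median -0.33). The part of these cell types in the results was not tested, and leaving out 1 array does not test it. The erythroid marker Alas2 was higher in hs-KO males than in hs-KO females (1.11, adjusted p = 0.0377). Summed intensities of 10 hepatocyte markers were 118466 to 153114, with Hpd lower in hs-KO males than in hs-KO females (-0.71, adjusted p = 0.046), and in bulk tissue fewer cells of a type and less RNA per cell cannot be told apart.

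**Figure D1:**
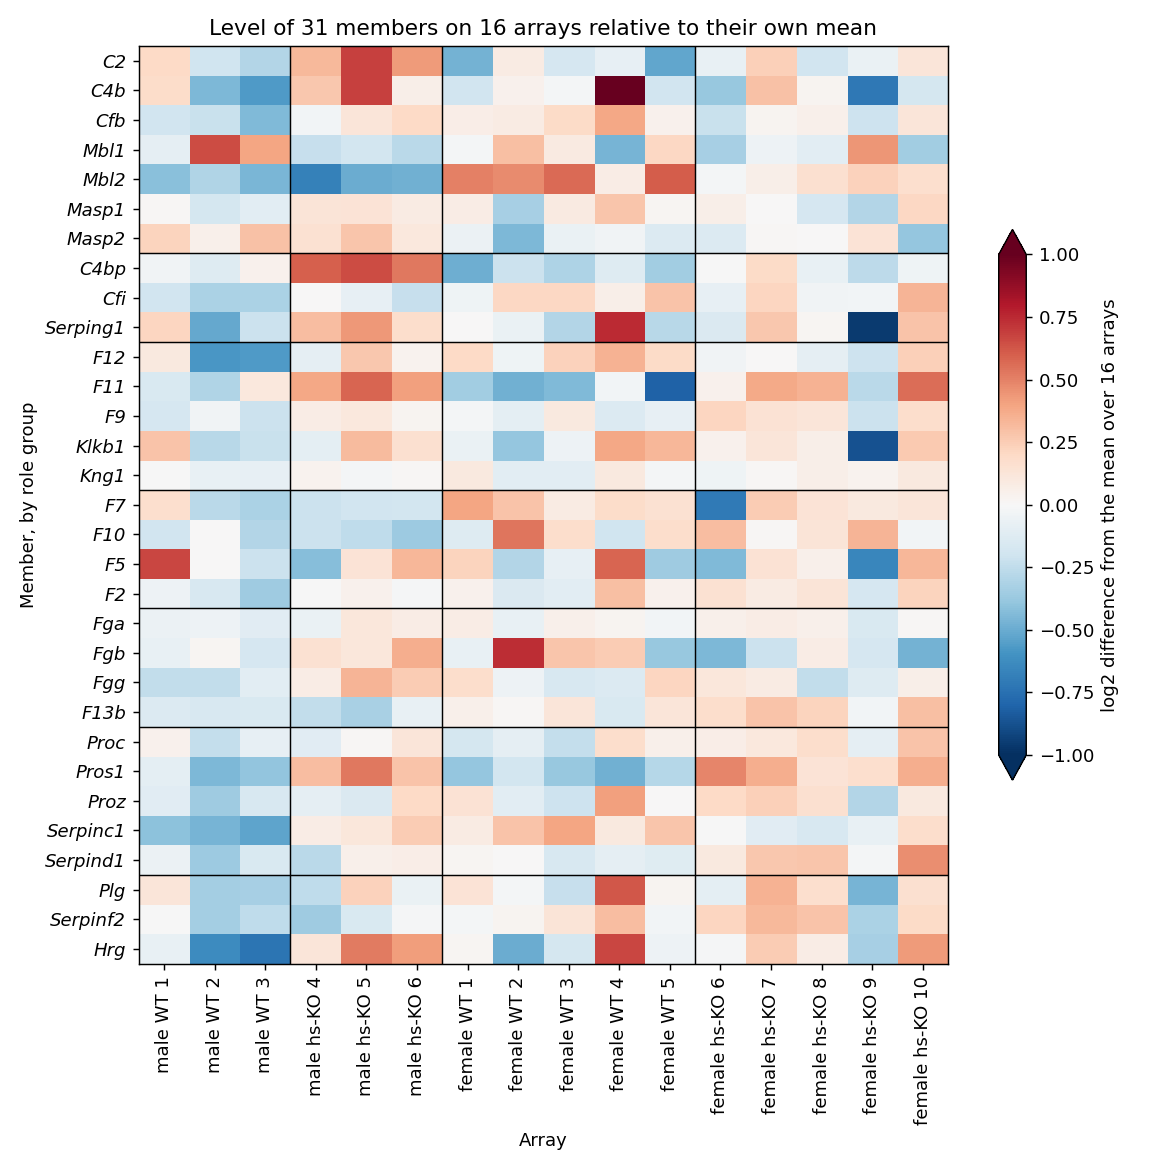
Each row is 1 of the 31 tested genes, grouped by role, and each column 1 of the 16 arrays; colour is the log2 intensity minus the mean of that gene over the 16 arrays, from -1 (blue) to 1 (red). Mbl2 is blue in all 6 male columns, Serpinc1 is darkest blue in the 3 male WT columns, C4bp and F11 are red in the 3 male hs-KO columns, and female WT 4 and female hs-KO 9 stand out for C4b and Serping1.

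As a description of the set, in WT livers the median male minus female log2 difference over the 31 genes was -0.19, against -0.02 over all tested genes, and 7 of 31 lay above 0 (47.1% of all genes did). In hs-KO livers it was 0.07 against 0.01, with 17 of 31 above 0 (51.2% of all genes). The hs-KO minus WT median was 0.20 in males against 0.02 for all genes, with 24 of 31 above 0 (52.7% of all genes), and 0.00 in females against 0.00, with 15 of 31 above 0 (50.6%). In the same male comparison the median was 0.22 over 10 hepatocyte markers (9 above 0) and 0.47 over 12 hepatocyte transcription factor genes (10 above 0). It was 0.13 over 19 further plasma protein genes (16 above 0) and -0.33 over 4 vitamin K cycle genes (0 above 0). The WT sex comparison and the male genotype comparison share the 3 male WT arrays. On these the summed intensity of the 31 genes was 249938 to 277059. It was 284081 to 324599 in female WT, 284519 to 312802 in male hs-KO and 260154 to 320077 in female hs-KO. Such a sum leans on the brightest probes. With each gene set against its own mean, the median log2 deviation of the 31 genes was -0.25 to -0.06 in male WT. It was -0.05 to 0.10 in female WT, -0.0005 to 0.12 in male hs-KO and -0.17 to 0.17 in female hs-KO. Male WT 1 was the highest of its group for 21 of 31 genes. Female WT 4 was the highest of its group for 16 and female hs-KO 9 the lowest of its group for 18. The same counts over all tested genes were not made, so these are not read as particular to the 31 genes. Without male WT 1 the WT sex median was -0.24 against -0.05 over all genes, with 4 of 31 above 0. The male genotype median was then 0.25 against 0.04, with 27 of 31 above 0. In the hs-KO sex comparison the median was -0.01 against 0.01 without male hs-KO 5 (14 of 31 above 0). Without female hs-KO 9 it was -0.01 against -0.002 (15 of 31). Without female WT 2, female WT 4 and female hs-KO 9 the WT sex median was -0.14 against -0.02 (9 of 31 above 0). The female genotype median was then 0.07 against 0.01 (20 of 31). The share of all genes above 0 was not counted in these fits.

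The first question was which of these genes differ between male and female livers. In WT mice 2 of the 31 were lower in males and 0 were higher, Mbl2 and Serpinc1, while 3.73% of all tested genes passed in either direction and 2.11% passed as lower and 1.62% as higher in males. In limma 6 of 31 had an unadjusted p under 0.05, against 17.4% of all genes. In hs-KO mice 1 was lower in males, Mbl2, and 1 was higher, C4bp, where 2.38% of all genes passed, 1.39% as lower and 0.989% as higher. No male array overlapped with a female array for 6 of 31 genes in WT (11.5% of all genes) and for 6 of 31 in hs-KO (13.1%).

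Mbl2 encodes mannose-binding lectin C, a pattern recognition lectin that opens the lectin pathway of complement. Its intensity was 4985, 5402 and 4846 in male WT and 9422, 9232, 9849.9, 7019 and 10109.5 in female WT. It was 4167, 4714 and 4767 in male hs-KO and 6547, 6936, 7429, 7815 and 7471 in female hs-KO. Every male array lay below every female array of the same genotype, and female WT 4 was the lowest of the female WT arrays. Mbl2 was 1.78-fold lower in males than in females of WT (log2 difference -0.83, SE 0.14, adjusted p = 0.00197 from limma) and 1.59-fold lower in hs-KO (log2 difference -0.67, SE 0.14, adjusted p = 0.0149). The hs-KO call did not pass without male hs-KO 4 or without male hs-KO 5. The sex difference did not pass the test of a change with genotype (log2 difference of differences 0.17, SE 0.197, adjusted p = 0.769 from limma). The other mannose-binding lectin gene, Mbl1, gave 0.29 in WT (adjusted p = 0.524 from limma) and -0.15 in hs-KO (adjusted p = 0.808).

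Serpinc1 encodes antithrombin, the main serpin inhibitor of thrombin and factor Xa. Its intensity was 7009, 6740.1 and 6455 in male WT and 9889, 11357, 12259, 9982 and 11296 in female WT. It was 9803, 10092 and 11145 in male hs-KO and 9325, 8634, 8345, 8846 and 10557 in female hs-KO. The 3 male WT arrays were the lowest of the 16 and did not overlap with any other group, while the male and female hs-KO arrays overlapped. Serpinc1 was 1.62-fold lower in males than in females of WT (log2 difference -0.70, SE 0.129, adjusted p = 0.00443 from limma), a call that did not pass with only the WT arrays in the fit, and the same contrast in hs-KO was 0.18 (SE 0.129, adjusted p = 0.565). In males it was 1.53-fold higher in hs-KO than in WT (log2 difference 0.62, SE 0.144, adjusted p = 0.0395 from limma), and in females it was -0.26 (adjusted p = 0.334). The change of the sex difference with genotype was 0.88 (SE 0.182), with an unadjusted p of 0.000184 and an adjusted p of 0.132 over all genes in limma, and 0 of 31 genes passed this test, against 0.0909% of all genes (0.0404% with a higher and 0.0505% with a lower value). At an unadjusted p under 0.05, 7 of 31 genes and 8.62% of all genes stood in that test.

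A second, dimmer probe of Serpinc1 gave other values. Its intensity was 841, 539 and 546 in male WT and 634, 609 and 658 in male hs-KO. It was 864, 792, 1067, 919.9 and 805 in female WT and 845, 627, 809, 672 and 712 in female hs-KO. Male WT 1 overlapped with the female WT arrays on this probe, and the male groups overlapped with each other. In a limma fit over all 14946 kept probes the male minus female difference in WT was -0.48 on this probe (adjusted p = 0.136) and the hs-KO minus WT difference in males was 0.01 (adjusted p = 0.987), so that the 2 probes share the direction of the sex difference in WT but not the size of the genotype difference in males.

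C4bp encodes the chain of C4b-binding protein, the plasma regulator that dismantles the classical and lectin pathway convertase. Its intensity was 7455, 6994 and 7874 in male WT and 5457, 6568, 6159.5, 6975 and 6016 in female WT. It was 11584, 12048 and 11045 in male hs-KO and 7636, 8739.6, 7267, 6381 and 7429 in female hs-KO. The 3 male hs-KO arrays lay above all 13 others, and male WT lay just above female WT, with 6994 as the lowest male and 6975 as the highest female value. C4bp was 1.55-fold higher in males than in females of hs-KO (log2 difference 0.63, SE 0.133, adjusted p = 0.0157 from limma), and this call did not pass without male hs-KO 4, without male hs-KO 5 or with only the hs-KO arrays in the fit. The same contrast in WT was 0.26 (SE 0.133, adjusted p = 0.334), and the change between the genotypes did not pass (0.37, SE 0.188, adjusted p = 0.595). A second C4bp probe gave 0.55 in WT (adjusted p = 0.109) and 0.66 in hs-KO (adjusted p = 0.0729) in the fit over all probes.

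**Figure D2:**
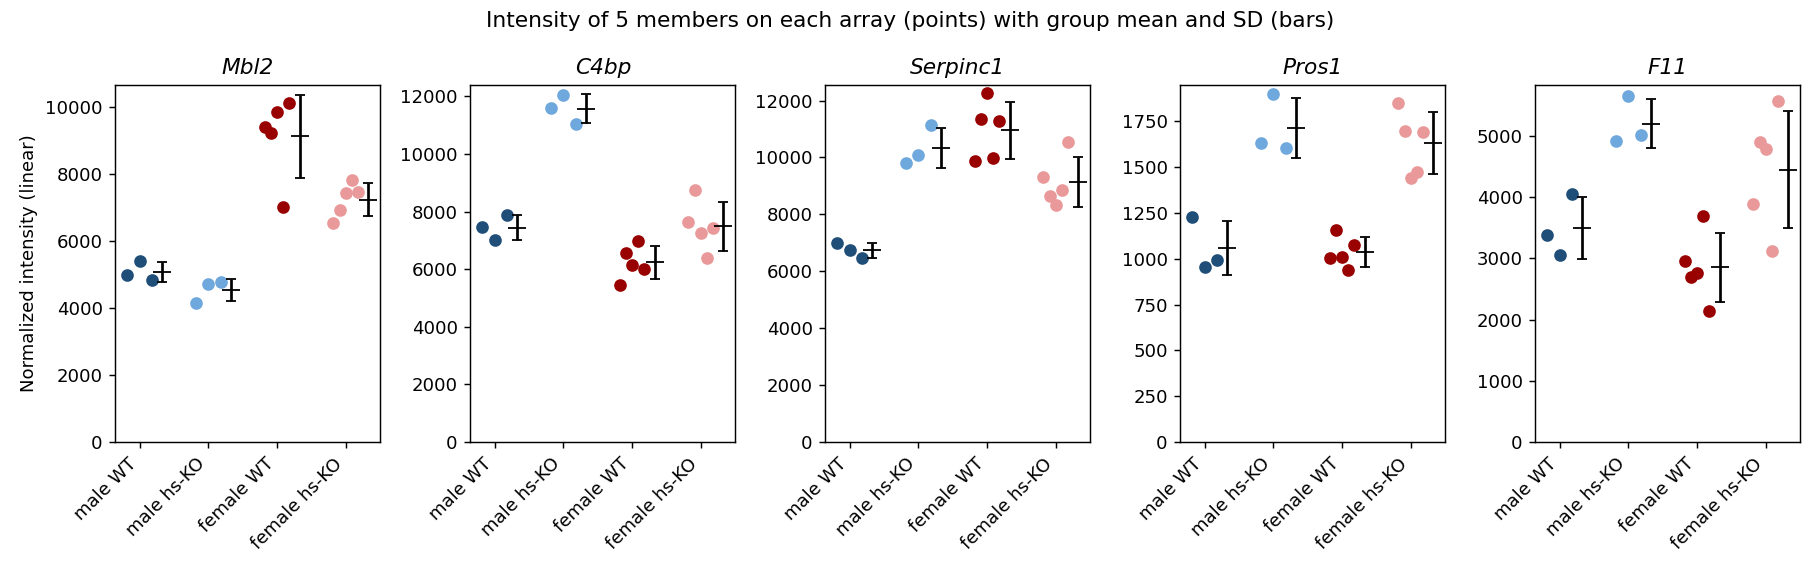
Points are the normalised intensity (linear scale from 0) of each array for Mbl2, C4bp, Serpinc1, Pros1 and F11, and bars are the mean and SD of each group (n = 3 for males and n = 5 for females). Male Mbl2 values lie below all female values, the 3 male hs-KO points of C4bp lie above all others, the 3 male WT points of Serpinc1 are the lowest, and hs-KO points of Pros1 lie above all WT points in both sexes.

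None of the other complement genes passed between the sexes. Cfb, factor B of the alternative pathway, was at 11934, 11687 and 10036 in male WT and 14262, 14398, 15558, 17849.5 and 13996 in female WT, so that the groups did not overlap. The difference was -0.44 (SE 0.139, adjusted p = 0.0987 from limma). In hs-KO Cfb was at 13388, 14844 and 15668 in males and 11687, 13846, 14137, 11776 and 14844 in females, which overlapped. Cfi, the protease factor I that inactivates C3b and C4b, was at 13846, 12692 and 12692 in male WT and 15326, 18254, 18185, 16445 and 19285 in female WT. These did not overlap either, and the difference was -0.42 (adjusted p = 0.117), while male hs-KO at 15842, 14890.2 and 13425 and female hs-KO at 14890.2, 18329.9, 15446, 15506 and 20035 overlapped.

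Masp1 and Masp2 encode the proteases that work with the lectins. Masp1 was at 1895, 1667 and 1751 in male WT and 2058, 2071 and 1993 in male hs-KO. It was at 1979, 1494, 2000.3, 2281 and 1909 in female WT and 1957, 1885, 1674, 1536 and 2176 in female hs-KO. The sexes overlapped in both genotypes. Masp2 was 0.34 in WT (adjusted p = 0.246) with no overlap between the sexes. Of its 3 other kept probes, the next brightest gave 0.41 (adjusted p = 0.155), 1 gave -0.24 (adjusted p = 0.482) and the dimmest gave 0.18 (adjusted p = 0.611) in the fit over all probes. C2, the serine protease of the lectin and classical convertase, was 0.47 in hs-KO (adjusted p = 0.211), and its neighbour Cfb was 0.15 (adjusted p = 0.687). C4b, the thioester protein cleaved at the start of both pathways, gave -0.43 in WT and 0.53 in hs-KO with neither passing (adjusted p = 0.499 and 0.455), and in female WT it was 2798, 3281, 3148, 7009 and 2795, with female WT 4 far above the rest. Serping1, the C1 inhibitor, also had its highest value in female WT 4, 19340.8, and gave -0.19 in WT and 0.41 in hs-KO (adjusted p = 0.786 and 0.548).

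Among the contact and intrinsic factors no gene passed between the sexes by the probe that stood for it. F12, the contact-activated protease factor XII, had 2795 to 4482 in male WT and 4053 to 5325 in female WT, and male WT 1 reached into the female range (log2 difference -0.53, adjusted p = 0.105 from limma). Without male WT 1 the F12 difference passed. Klkb1, plasma prekallikrein, was at 2707, 1820.4 and 1899.7 in male WT and 2063, 2767 and 2476 in male hs-KO. It was at 2117, 1691, 2141, 2894 and 2789 in female WT and 2284, 2404, 2312, 1207 and 2661 in female hs-KO, where female hs-KO 9 was the lowest, and all groups overlapped. F11, factor XI, gave 0.31 in WT and 0.25 in hs-KO (adjusted p = 0.466 and 0.623). Its dimmest probe was at 156 to 231 in male WT and 73.6 to 126 in female WT, with no overlap. On that probe the sexes overlapped in hs-KO, and on the remaining F11 probe they overlapped in WT. X-linked F9 gave -0.09 and -0.02 (adjusted p = 0.787 and 0.963).

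Kng1, high molecular weight kininogen, is the cofactor of the contact system and the source of bradykinin. Its brightest probe was near the ceiling on all arrays, at 40757, 38822 and 38536 in male WT, 43731, 37993, 37993, 43731 and 40369.9 in female WT, 41798, 40369.9 and 41095 in male hs-KO and 39557, 41095, 42507, 41798 and 43731 in female hs-KO. A dimmer Kng1 probe was at 2057, 2389 and 2002 in male WT and 4029, 4029 and 4581 in male hs-KO. It was at 4510.1, 5777, 5450.4, 3750.2 and 3989.7 in female WT and 4944, 4759.9, 5698, 4318 and 5718 in female hs-KO. On the dimmer probe the 3 male WT arrays lay below all 13 others. In the fit over all probes it was -1.11 for male minus female in WT (SE 0.167, adjusted p = 0.000789 from limma) and 0.97 for hs-KO minus WT in males (SE 0.187, adjusted p = 0.0125). The sex difference in hs-KO was -0.27 (adjusted p = 0.535) on that probe, and its change with genotype was 0.84 (adjusted p = 0.361). The remaining Kng1 probe gave -0.42 in WT (adjusted p = 0.158) and 0.25 in males (adjusted p = 0.545), and the mouse has a closely similar kininogen gene, so which transcripts each probe reads was not tested. The dimmer probe was chosen for description after its values were seen.

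The extrinsic and common pathway genes gave no call. F7, the factor VII protease that binds tissue factor, was at 513, 375 and 363 in male WT and 391, 396 and 399 in male hs-KO. It was at 603, 559, 482, 518 and 506 in female WT and 273, 544, 502, 488 and 497 in female hs-KO, where female hs-KO 6 was the lowest of all 16, and the sexes overlapped. F2, prothrombin, was at 12519.9, 11646 and 10133 in male WT and 12996, 13388 and 12867 in male hs-KO. It was at 13425, 11746, 12107, 15979 and 13388 in female WT and 14443, 13743, 14179.8, 11547 and 15160 in female hs-KO, again with overlap between the sexes. F10, the protease of the prothrombinase complex, had 4820.4 to 5348 in male hs-KO and 6096 to 7863 in female hs-KO with no overlap, at -0.43 (adjusted p = 0.24 from limma). F5, its cofactor factor V, gave 0.14 and 0.13 in WT and hs-KO (adjusted p = 0.857 and 0.885), and its second probe pointed the other way in WT.

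Fga, Fgb and Fgg encode the 3 fibrinogen chains, and F13b the carrier subunit of the transglutaminase factor XIII that cross-links fibrin. Fga was at 38822, 39008 and 37357 in male WT, 38536, 43731 and 42507 in male hs-KO, 42507, 38388, 41798, 41095 and 39557 in female WT and 41798, 42507, 41798, 36315 and 40757 in female hs-KO, close to the ceiling. The groups overlapped. The single Fgb probe was dim, at 80.8, 86.8 and 74.5 in male WT and 97.2, 94 and 115 in male hs-KO. It was at 80.5, 154, 108, 105 and 62.1 in female WT and 58.4, 71.4, 91.1, 74.6 and 57.1 in female hs-KO, and the sexes were apart in hs-KO and overlapped in WT. Their log2 differences were 0.46 and -0.24 (adjusted p = 0.328 and 0.617 from limma). Fgg gave -0.21 in WT and 0.24 in hs-KO (adjusted p = 0.492 and 0.471). F13b had 8403 to 10007 in male hs-KO and 10306 to 12946 in female hs-KO with no overlap, at -0.41 (adjusted p = 0.129).

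**Figure D3:**
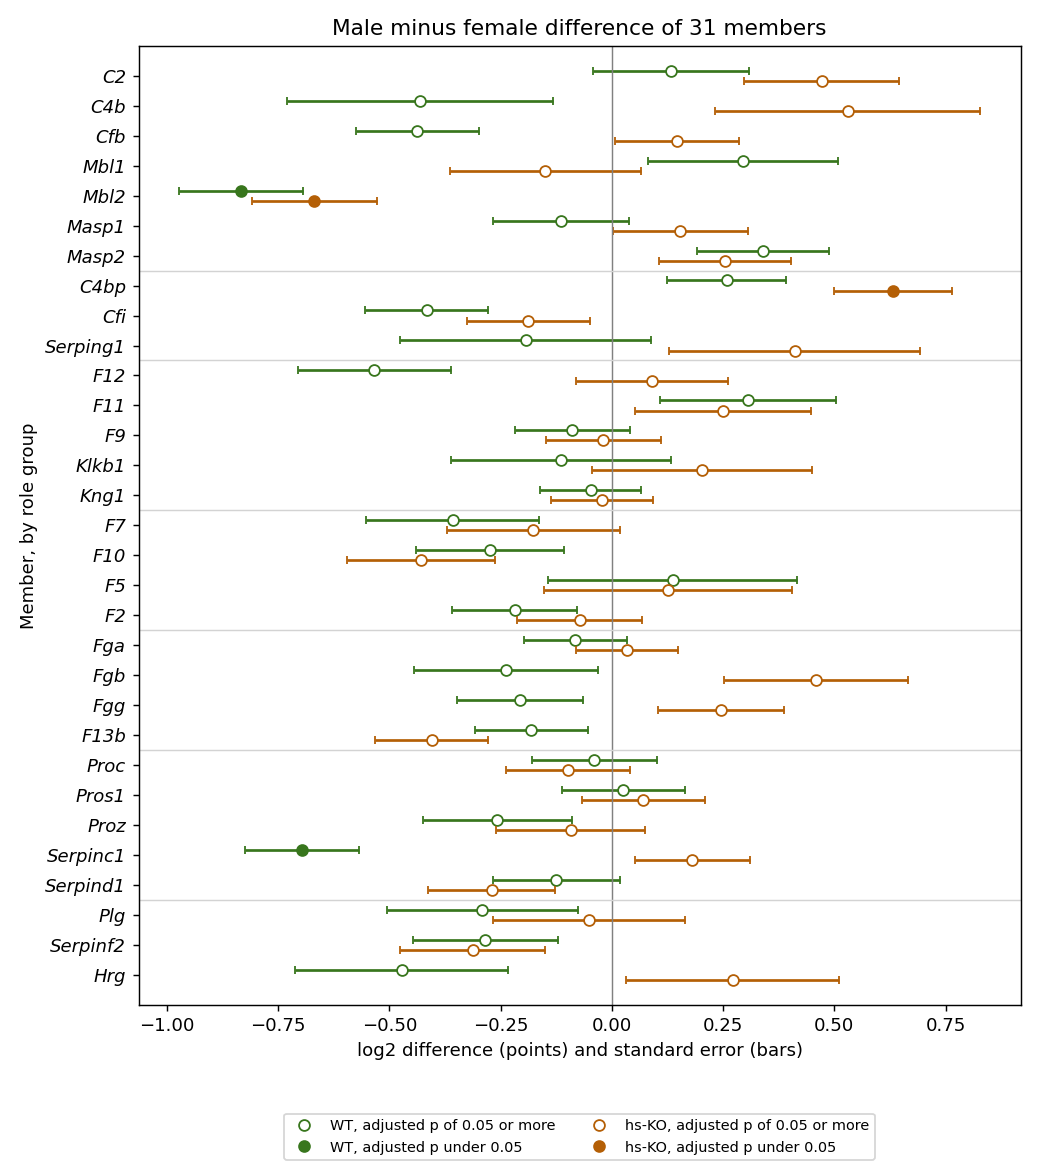
The male minus female log2 difference (horizontal axis, points) and its standard error (bars) are drawn for the 31 genes, in WT (green) and hs-KO (orange), with filled points for an adjusted p under 0.05. Mbl2 is filled in both genotypes, Serpinc1 only in WT and C4bp only in hs-KO, and most WT points lie to the left of 0.

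The second question was which of these genes differ between hs-KO and WT livers of each sex. In males 3 of the 31 were higher in hs-KO and 0 were lower, namely Pros1, Serpinc1 and C4bp, while 1.56% of all genes passed, 0.919% as higher and 0.646% as lower. In females 1 was higher, Pros1, and 0 were lower, while 2.38% of all genes passed, 1.29% as higher and 1.09% as lower. At an unadjusted p under 0.05 in limma 10 of 31 genes stood in males (14.3% of all genes) and 7 in females (12.4%). The hs-KO and WT arrays did not overlap for 14 of 31 genes in males (23.2% of all genes) and for 1 of 31 in females (3.89%).

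Pros1 encodes protein S, the vitamin K-dependent cofactor of activated protein C and of the tissue factor pathway inhibitor. Its intensity was 1226, 955 and 995 in male WT and 1632, 1898 and 1601 in male hs-KO. It was 1002, 1156, 1008, 938 and 1076 in female WT and 1847, 1697, 1441, 1475 and 1691 in female hs-KO. All 8 hs-KO arrays lay above all 8 WT arrays, and the sexes overlapped within each genotype. Pros1 was 1.56-fold higher in hs-KO females (log2 difference 0.64, SE 0.12, adjusted p = 0.00784 from limma) and 1.61-fold higher in hs-KO males (log2 difference 0.69, SE 0.155, adjusted p = 0.0327). Pros1 was read by 1 probe. The female call passed under all 26 alternatives, with adjusted p from 0.00282 to 0.0305. For each sex the 26 include settings that left out an array of the other sex, which is not in the comparison. The male call passed in 20 of 26 and was lost without male WT 2 or male WT 3, without any 1 of the male hs-KO arrays, and with only the male arrays in the fit. The difference between the sexes in this response was 0.04 (SE 0.196, adjusted p = 0.942).

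In males the C4bp difference between genotypes was 0.64, or 1.55-fold (SE 0.148, adjusted p = 0.0399 from limma), and in females 0.26 (adjusted p = 0.353). On the second C4bp probe these were 0.61 (adjusted p = 0.163) and 0.50 (adjusted p = 0.142) in the fit over all probes. The male calls of Serpinc1 and C4bp were each lost in 13 of 26 alternatives, including without any 1 of the 6 male arrays, whereas the direction stayed.

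F11, whose product factor XI activates factor IX, did not pass in either sex by the probe that stood for it. It was at 2961, 2697, 2767, 3690.2 and 2149 in female WT and 3883, 4905, 4793, 3118 and 5568 in female hs-KO. It was at 3386, 3060.1 and 4058 in male WT and 4923, 5660.3 and 5021 in male hs-KO. The male groups did not overlap, and the female groups overlapped through female WT 4 and female hs-KO 9. The differences were 0.63 in females (SE 0.172, adjusted p = 0.0683) and 0.58 in males (SE 0.221, adjusted p = 0.234 from limma). The female difference passed in 7 of 26 alternatives. Among those that left out a single array, it passed only without female WT 4 or without female hs-KO 9. Of its other probes, the dimmest (mean intensity 201, against 3915 for the probe that stood for F11) gave 0.99 in females (adjusted p = 0.00592 from limma). The remaining probe gave 0.67 in females (adjusted p = 0.108).

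**Figure D4:**
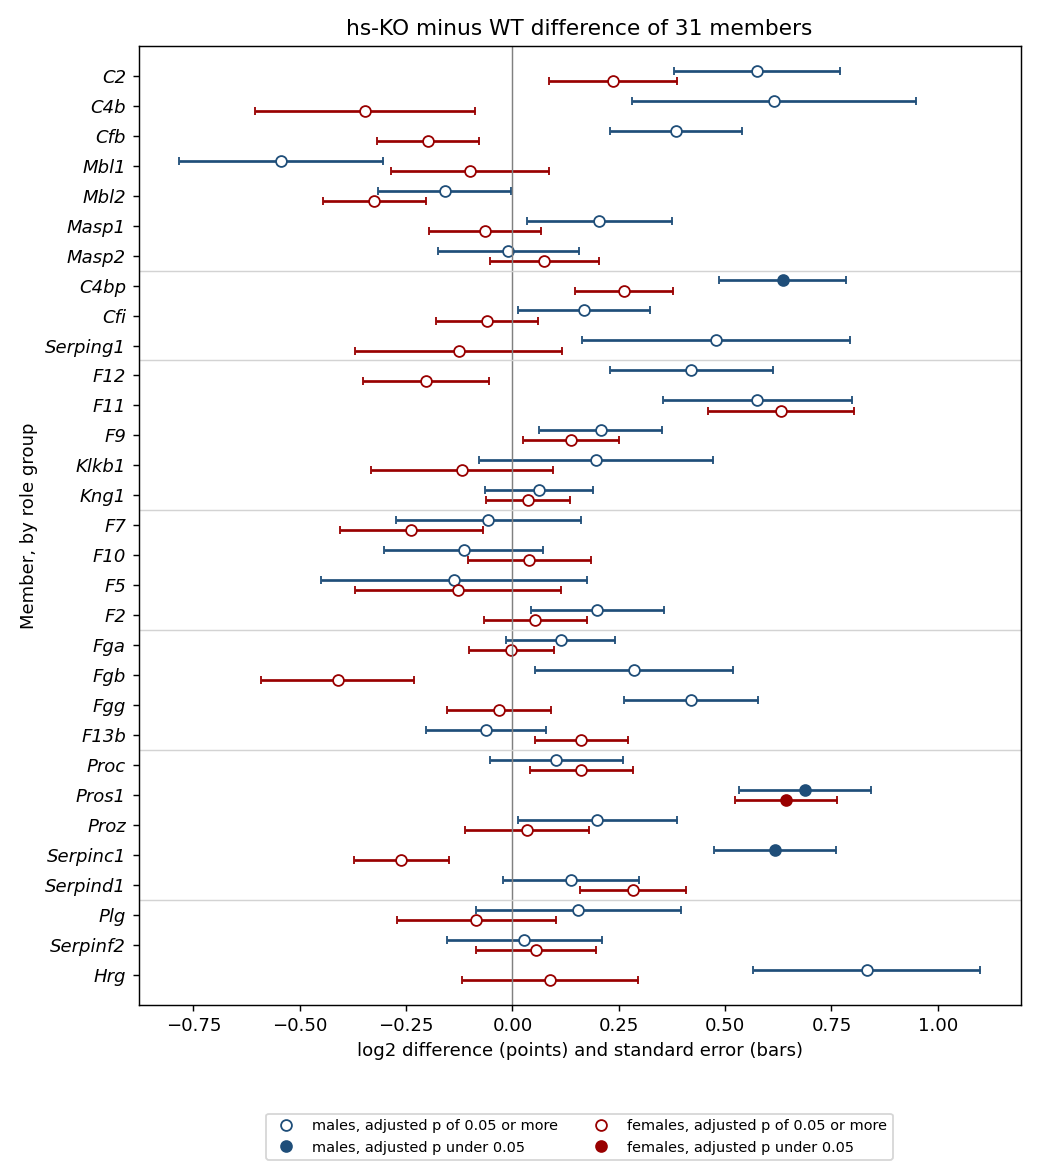
The hs-KO minus WT log2 difference (horizontal axis, points) and its standard error (bars) are drawn for the 31 genes, in males (blue) and females (red), with filled points for an adjusted p under 0.05. Pros1 is filled in both sexes, Serpinc1 and C4bp only in males, and F11 lies at 0.58 in males and 0.63 in females with neither filled.

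None of the other inhibitors of clotting passed between genotypes. Proc, the zymogen of activated protein C, was at 11843, 9708 and 10819 in male WT and 10629.8, 11584 and 12519.9 in male hs-KO. It was at 10175, 10773, 9753, 12996 and 11871 in female WT and 12019.9, 12328, 12946, 10773 and 13996 in female hs-KO. These ranges overlapped in both sexes, with differences of 0.10 and 0.16 (adjusted p = 0.802 and 0.691 from limma). Serpind1, heparin cofactor II, gave 0.14 in males and 0.28 in females (adjusted p = 0.721 and 0.349). Proz, protein Z, the cofactor for the inhibition of factor Xa, gave 0.20 and 0.03 (adjusted p = 0.651 and 0.967).

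In fibrinolysis, Plg encodes plasminogen, Serpinf2 the plasmin inhibitor alpha-2-antiplasmin and Hrg histidine-rich glycoprotein, which binds plasminogen and heparin. Plg was at 16596, 12078 and 12139 in male WT and 12832, 17909.7 and 14611 in male hs-KO. It was at 16774, 15116, 12996, 23549 and 15558 in female WT and 14262, 19436, 17182, 11045 and 17127 in female hs-KO, and all groups overlapped. Hrg was at 5614, 3812 and 3567 in male WT and 6455, 8482 and 7919.9 in male hs-KO. It was at 5988, 4195, 5242, 9440.01 and 5709 in female WT and 5882, 7061, 6239.8, 4699 and 7943 in female hs-KO. Male WT and male hs-KO did not overlap, and Hrg had the largest of the 31 log2 differences in that comparison, 0.83, but with a wide error (SE 0.267, adjusted p = 0.147 from limma). In females it was 0.09 (adjusted p = 0.926). Serpinf2 gave 0.03 and 0.06 (adjusted p = 0.962 and 0.935).

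None of the remaining complement and fibrinogen genes passed between genotypes. In males C2 was 0.57 (adjusted p = 0.175 from limma), Fgg 0.42 (adjusted p = 0.222) and Mbl1 -0.54 (adjusted p = 0.313), with no overlap between the male groups for any of them. In females these 3 genes gave 0.24, -0.03 and -0.10 (adjusted p = 0.615, 0.961 and 0.905). Male Mbl2 was -0.16 and female Mbl2 -0.32 (adjusted p = 0.667 and 0.239). The vitamin K-dependent genes F2, F7, F9, F10, Proc and Proz, whose products share the carboxylated domain of protein S, lay between -0.11 and 0.21 in males and between -0.24 and 0.16 in females, and none of them passed.

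The steps on either side of this set were read from lists of related genes. Of 16 other tested coagulation and fibrinolysis genes, 2 were higher in WT males (F2r and Serpina5) and 1 was lower in hs-KO males than in hs-KO females (Tfpi, the tissue factor pathway inhibitor, log2 difference -1.01, adjusted p = 0.00374 from limma). Serpina5, the protein C inhibitor, rose in hs-KO of both sexes, from 61.1, 87.2 and 65.9 to 260.00, 159 and 164 in males and from 22.1, 25.9, 23.7, 26.3 and 39.4 to 103, 122, 62.3, 93.9 and 129.9 in females (log2 difference 1.25 and 1.42, adjusted p = 0.0117 and 0.000516). The thrombin receptor gene F2r was 1.32 in the WT sex comparison (adjusted p = 0.00366). Of 17 other early complement genes and of 4 vitamin K cycle genes, 0 passed in any of the 5 comparisons. At an unadjusted p under 0.05 in limma, 5 of the 17 stood in the WT sex comparison, 3 in hs-KO, 2 in male and 3 in female genotype comparisons, and 1, 2, 2 and 1 of the 4 in the same order, while 2 of the 17 and 0 of the 4 stood in the test of a change with genotype. The terminal complement genes, which form the membrane attack complex after the early steps, had 4 of 6 higher in WT males (C6, C8b, C9 and C8a) and 3 of 6 in hs-KO males (C6, C8a and C8b). Between genotypes C6 was higher in hs-KO males (1.33, adjusted p = 0.0376) and C8b in hs-KO females (0.76, adjusted p = 0.0399 from limma). The median WT sex difference was 1.40 over those 6 genes and -0.19 over the 31.

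Of 19 further plasma protein genes 5 were lower in WT males, with Serpina6 at -1.58, Alb at -0.97, Itih2 at -0.93, Agt at -0.90 and Afm at -0.80 (adjusted p from limma = 0.00356, 0.0237, 0.0452, 0.0305 and 0.0186), and their median was -0.13. In hs-KO livers 0 of the 19 passed between the sexes, and 3 had an unadjusted p under 0.05 in limma. In the male genotype comparison 1 of the 19 was higher, Serpina6 (1.40, adjusted p = 0.0323 from limma), with a median of 0.13 over the 19 and of 0.20 over the 31. Of 15 acute phase genes, Orm3 (-1.77, adjusted p = 0.0102) and Fgl1 (-1.02, adjusted p = 0.00637) were lower in WT males, and Orm3 (-1.96, adjusted p = 0.00565) and Crp (-0.58, adjusted p = 0.0294) were lower in hs-KO males than in hs-KO females. Of 12 hepatocyte transcription factor genes, Foxa3 was higher in hs-KO than in WT males (0.95, adjusted p = 0.0198).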

How the data were processed

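RNA of 16 mouse livers was measured on Illumina mouse Ref-6 v2 arrays, 1 per mouse. Per the labels, total RNA was extracted with Trizol and biotinylated cRNA was hybridised; the submitters' processing notes name lumi. The deposited values are probe intensities on a linear scale. Between 35.2% and 35.3% of them lay below 0 on each array and the sorted values of arrays are nearly alike, so they had been background-subtracted and quantile normalised; the background method is not given in the sources used here. A second deposited table holds 32 per-sample columns of values before normalisation whose names match no label, and these were not used.

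Negative intensities were replaced by 0, and log2 was taken after addition of 16. A probe was detected above 3 times the root mean square of the values below 0 of its array (20.9 to 21.0), kept if detected on at least 3 arrays, and the brightest kept probe stood for a gene (9906 genes). Groups were taken from the labels and compared with limma 3.58.1 (R 4.3.3; lmFit, then eBayes), fitting the mean of each of the 4 groups to the 16 arrays, with 12 residual and 4.03 prior degrees of freedom, for 5 comparisons, with Benjamini-Hochberg adjustment over all genes. The script was tested on simulated data. The number of arrays limits the precision; chips and scan dates are not given in the sources used here. Alternatives were other offsets, filters, probes, samples, prior variance, array weights, median centring and a replicate block. Members are named with values on every array where they passed a comparison or had the highest or lowest mean intensity of their role group. F11 met neither condition and is shown in addition. Other listed genes are named where they passed. The members, lists and tests were chosen with earlier results of these data known. Promoter windows and positions are from RefSeq (GRCm38.p6).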

Additional observations from a re-analysis of the deposited data

Results flagged for a closer look

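In the female groups of 5, 10 of 62 tests found 1 array farther from the rest than Dixon's 95% limit. The tests read different genes on the same arrays, so they are not independent. The rate over all tested genes was not counted, so the count is not read as a result about these genes. The causes were not tested. In female WT, C4b was 7009 on array 4, against at most 3281 on the others, and Serping1 was 19340.8 there, while Mbl2 was lowest on the same array with 7019. Masp2 was lowest on female WT 2 with 2149, the array with the highest summed macrophage markers. In female hs-KO, array 9 stood apart at the low end for 5 genes, with F9 at 8327, Fga at 36315, Klkb1 at 1207, Proz at 1211 and Serpinf2 at 11073. F7 was lowest on female hs-KO 6 with 273. The next array was at 488 for F7, 10525 for F9, 2284 for Klkb1 and 15795 for Serpinf2.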

How the results depend on the processing

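Over the alternatives that were run, no gene of the set that passed in any setting changed its direction, and 112 member values changed sign where neither setting passed the threshold. With array weights, which gave male WT 3 a weight of 4.66 and female WT 4 one of 0.294, the count of all genes was 1409 for sex in WT, 504 for sex in hs-KO, 1615 for genotype in males and 42 for the change with genotype, and members higher and lower were 3 and 6 in WT, 1 and 2 in hs-KO, 8 and 1 in males, 2 and 1 in females, and 1 higher for the change with genotype. With an intensity trend 4 members were lower in WT males, 2 lower in hs-KO males, 2 higher in hs-KO females, and Serpinc1 alone (1) was higher for the change with genotype. With only the 2 groups compared, the counts of all genes were 172 for sex in WT and 137 for genotype in females, 1 member was lower in WT males, 0 were higher in hs-KO males against females and 0 were higher in hs-KO males against WT males. With the mean of all kept probes 1 member was higher in hs-KO males and 2 in hs-KO females, and with an offset of 50 there were 2 in hs-KO females; with an offset of 4 the change with genotype had 5 genes. Without female WT 2, female WT 4 and female hs-KO 9, chosen after seeing the data, genotype gave 287 genes in males and 143 in females, and 2 members higher in females. Where no count of all genes stands beside a member count, that member count is not read as a result about the set.

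Leaving out 1 array at a time, the counts of all genes ranged from 169 to 400 for sex in WT (lowest without male WT 3), 117 to 277 for sex in hs-KO (lowest without male hs-KO 5), 81 to 199 for genotype in males (lowest without male WT 2), 162 to 241 for genotype in females and 3 to 9 for the change with genotype. Members lower in WT males ranged from 2 to 3, members higher and lower in hs-KO males against females each from 0 to 1, members higher in hs-KO males from 0 to 3 and in hs-KO females from 1 to 2, and every other member count was 0 to 0.

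With the replicate number as a block over the WT arrays, the sex comparison gave 76 genes and 0 members, so that Mbl2 and Serpinc1 lost their calls. Numbers 1 to 3 are shared only by the WT groups, and same-numbered arrays deviated together with r of 0.10, 0.26 and 0.08, so they were not taken as pairs. No paired analysis was possible for the other comparisons because their groups share fewer than 2 numbers. Few arrays, the ceiling for Kng1 and Fga and the dim Fgb probe limit what can be read.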
